A study of Saccharomyces cerevisiae with 8 samples.

Results

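The loci described here are origin regions that lie close to another origin region on the budding yeast genome. The events of 6 ChIP-Exo lists were pooled, and events up to 250 bp apart were chained into 355 loci. Of these, 351 held an event in both lists of Mcm4, and 30 of the 351 had their midpoint within 6 kb of the midpoint of another of them. These 30 close loci held 749 of the 9276 events at the 351 kept loci. They formed 14 groups, 12 of 2 loci and 2 of 3 loci, and 16 close pairs of neighbours, out of 335 neighbouring pairs of kept loci. The remaining 321 kept loci, with 8527 events, serve as the comparison. The choice used the presence of Mcm4 events and their positions, so the members were chosen by Mcm4 event presence and midpoint distance, and these properties are not findings. The values described below are the place of each locus in each list.

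The cells were S. cerevisiae of the W303 background. MCM2-7 was followed through a FLAG tag on Mcm4 (strain YC779) in cells held in G1-phase by alpha-factor, and ORC through a FLAG tag on Orc2 (strain YC795) in the same arrest and in cells held in G2-phase by nocodazole. Each condition had 2 biological replicates, and chromatin was precipitated with an anti-FLAG antibody and trimmed by lambda exonuclease. The groups therefore share the strain background and the tag but not the tagged subunit, and both cell cycle states are arrests of whole cultures. S-phase samples of Orc2 were not analysed here.

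ORC is the complex of subunits Orc1 to Orc6 that binds origin DNA, and in G1-phase it acts with Cdc6 and Cdt1 to load the MCM2-7 helicase as an inactive double hexamer around the duplex. In budding yeast ORC recognises the ARS consensus sequence, a short T-rich element found in autonomously replicating sequences (ARS). ORC also binds the silencers that flank the silent mating type cassettes HML and HMR, where it takes part in recruiting the Sir proteins, and some of these silencers act as origins on plasmids but hardly in the chromosome.

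For MCM2-7 the replicate lists numbered 1982 and 1723 events, for ORC 1170 and 1379 in G1-phase and 2178 and 861 in G2-phase. Read counts are not part of the lists, and the sequencing depth at each event is therefore unknown. Each event carries a score that stops at a cap of 1000, and below the cap the order of the list follows the score closely (absolute Spearman correlation 0.9864 or more in each list). The place of a locus was therefore taken from its first-listed event, as a percentile among the kept loci of that list in which 100 marks the top. The cap was reached in both Mcm4 lists by 313 kept loci, and among these loci the places still ran alike in the replicates (Spearman correlation 0.79 over 313 loci). For ORC the agreement at the cap was weaker, with 0.48 over 172 loci in G1-phase and 0.51 over 51 loci in G2-phase. In the 2 Mcm4 lists the order of events at the cap did not follow the chromosomes, as its Spearman correlation with genome position was 0.01 and -0.03. For ORC it was 0.05 and 0.13 in G1-phase and 0.01 and -0.02 in G2-phase. What orders the events at the cap is not stated. A place is relative within its list, and it cannot show whether occupancy changed at all loci together. With 2 lists per condition an exact permutation test could not pass 0.05, and loci are not replicates, so differences are described by whether the replicates overlap and no p-value is given.

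Sequences are shown for the closest pair, for the next pair in spacing, for the HMR pair, and for the loci beyond a Y-prime helicase gene or at a chromosome end that led their pairs most. They come from R64, on the strand of the best match to the ARS consensus sequence within 150 bases of the first-listed MCM2-7 event of replicate 1. Capitals mark that match, and the stretch runs from the match to the event with 15 bases on each side. R64 is the genome of strain S288C, and differences to W303 are not covered.
ARS302, chrIII:14686-14732, plus strand: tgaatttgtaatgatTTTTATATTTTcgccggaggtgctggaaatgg
ARS320, chrIII:15166-15211, minus strand: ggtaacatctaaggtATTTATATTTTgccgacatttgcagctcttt
ARS1622, chrXVI:563870-563937, plus strand: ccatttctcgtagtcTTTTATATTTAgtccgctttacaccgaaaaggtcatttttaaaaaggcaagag
ARS1634, chrXVI:565020-565197, minus strand: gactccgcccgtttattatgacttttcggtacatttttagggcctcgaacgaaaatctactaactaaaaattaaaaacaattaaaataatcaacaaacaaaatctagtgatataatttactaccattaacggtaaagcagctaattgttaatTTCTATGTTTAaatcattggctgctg
ARS317, chrIII:292612-292699, minus strand: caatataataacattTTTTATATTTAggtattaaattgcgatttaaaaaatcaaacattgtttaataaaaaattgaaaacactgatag
ARS318, chrIII:294868-294908, plus strand: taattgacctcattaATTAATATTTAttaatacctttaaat
ARS102, chrI:721-778, minus strand: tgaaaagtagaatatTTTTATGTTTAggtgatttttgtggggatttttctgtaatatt
ARS1601, chrXVI:7143-7200, minus strand: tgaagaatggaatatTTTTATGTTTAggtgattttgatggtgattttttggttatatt

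The match was complete (11 of 11 bases) in ARS302, ARS320, ARS1622, ARS317, ARS102 and ARS1601, and held 10 of 11 bases in ARS1634 and ARS318. The stretches of ARS102 and ARS1601, from different chromosomes, were identical at 49 of 58 bases. Over all close loci, 11 of 30 (36.7%) had a complete match, against 113 of 321 other kept loci (35.2%), while 1.8855% of windows of the same length tiled over the genome held one. At least 10 matching bases were found in 28 close loci (93.3%) and in 278 other kept loci (86.6%), against 26.8562% of windows. The windows cover genes as well and were not matched to the loci in base composition. The consensus was searched on both strands with its degenerate positions allowed, and a match is a description of the letters and not of a binding site.

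The groups lay on 9 chromosomes. Within 20 kb of a chromosome end lay 6 of the 14 groups and 14 of 30 close loci (46.7%), against 28 of 321 other kept loci (8.72%). The closest partners were ARS302 and ARS320 beside the HMLALPHA1 gene, with midpoints 595 bp apart and 328 bp between their outermost facing events. The pair just inside the limit was ARS102 and ARS102.5 at 5648 bp. Just outside it were ARS721 and ARS722 at 6059 bp, ARS726 and ARS727 at 6221 bp, and ARS907 and ARS908 at 6318 bp. A midpoint between convergent genes was found for 13 close loci (43.3%), against 104 other kept loci (32.4%). Tandem genes flanked 12 close loci, and 3 lay between divergent genes, ARS102 beyond the last gene of chromosome I, and ARS103 within SEO1, a putative permease gene. An annotated ARS overlapped 22 close loci (73.3%) and 259 other kept loci (80.7%). The loci without a name, 3 in all, are given by position, chrII:796589-796847, chrVIII:111350-111737 and chrXVI:12649-12950.

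**Figure D1:**
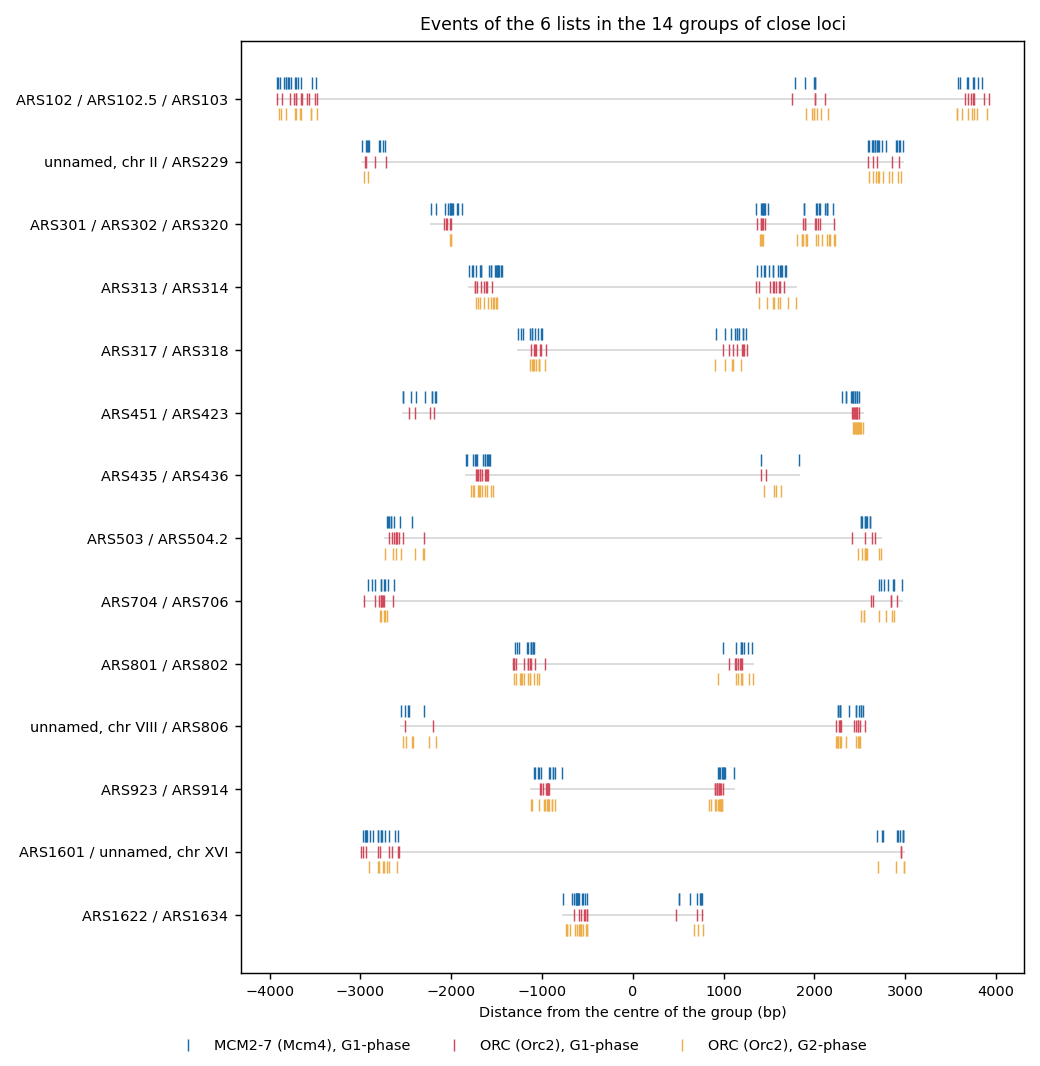
Events of the 6 lists in the 14 groups of close loci, plotted as distance in bp from the centre of each group, with MCM2-7 in G1-phase above, ORC in G1-phase in the middle and ORC in G2-phase below (replicates pooled). Events cluster at each partner, the 2 groups of 3 loci are those of ARS102 and ARS301, and ARS451 has no ORC event in G2-phase.

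The partners of a close pair usually held MCM2-7 places far apart, and the replicates mostly ranked the same partner first. In 14 of 16 close pairs (87.5%) the same partner was higher in both Mcm4 lists, against a background of 83.0% over all 335 neighbouring pairs, so agreement of this size is near what neighbours show in general. The median absolute difference of mean place within a close pair was 41.3 percentile points, against 29.2 between the partners of the other 319 neighbouring pairs, and the median difference between replicates of 1 locus was 7.55 points at close loci and 8.83 at other kept loci. Where the capped scores alone are ranked, with ties, the same partner led in 5 of 16 close pairs, as the partners were tied at the cap in at least 1 Mcm4 list in 11 pairs.

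ARS102 and ARS102.5, on either side of the PAU8 gene at the left end of chromosome I, differed most. ARS102 had MCM2-7 places of 84.5 and 91.9 in replicates 1 and 2, and ARS102.5 had 26.1 and 8.69. ARS103, the next locus of this group, came lower still at 4.99 and 2.99, and was below ARS102.5 in both replicates. The group thus ran downward from the chromosome end inward, with ranges that did not overlap.

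ARS1601, beside the Y-prime helicase gene YRF1-7 at the left end of chromosome XVI, had MCM2-7 places of 58.8 and 89.0, against 16.4 and 3.28 at its unnamed partner (chrXVI:12649-12950) between HSP32 and the fluoride exporter gene FEX2. None of the 50-base stretches of ARS1601 is unique in R64 (0%), and 17.0% of those of its partner are. The stretch at the first event of ARS1601 has 2 copies, the other on chromosome XV, and that of the partner has 3, the others on chromosomes XIII and XV. No kept locus lies at the other copies, and the reads of these loci cannot be assigned to 1 copy. The close loci that were not wholly unique also included ARS801 (39.4% unique), ARS301 (77.6%), ARS503 (82.4%) and ARS102 (94.5%), while 24 of 30 close loci (80.0%) and 288 of 321 other kept loci (89.7%) were. Among the 11 close pairs of wholly unique loci, the same partner led in both Mcm4 lists in 10.

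ARS1622 and ARS1634 flank AIM45 on chromosome XVI, 1261.5 bp apart and far from an end. ARS1622 had places of 55.1 and 70.2, against 2.14 and 1.28 for ARS1634, which was near the foot of both lists. ARS923 and ARS914, 1929 bp apart on chromosome IX, had 35.2 and 19.5 against 89.6 and 85.6. ARS704 and ARS706, on either side of the carboxypeptidase gene KEX1 and the aminotransferase gene ARO8, had 51.1 and 70.5 against 1.28 and 4.99, and ARS706 adjoins MCM6, the gene of another helicase subunit. In each of these pairs 1 partner stood in the upper ranks or the middle and the other low.

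The unnamed locus at chrII:796589-796847, between the metal transporter gene PCA1 and the phosphate transporter gene PHO89, had places of 37.7 and 13.5, against 85.9 and 78.2 at ARS229 beside the maltose regulator MAL33. The unnamed locus at chrVIII:111350-111737, beside NEM1, had 8.12 and 9.26, against 56.3 and 44.9 at ARS806, with GPA1, the G-protein alpha subunit of the pheromone response, between them. Both unnamed loci were the lower partner in both replicates. ARS503 had 6.98 and 6.13, against 44.0 and 49.1 at ARS504.2, on chromosome V near its left end. ARS435 had 34.0 and 27.2, against 0.427 and 0.142 at ARS436 beyond RAD30, the gene of DNA polymerase eta. ARS436 was at the foot of the kept loci in both lists, and R64 describes it as a putative origin. Each Mcm4 list held 1 event there, with scores of 132 and 68, where the lowest score in each list is 66. These events lay at opposite edges of the locus, 417 bp apart, so the replicates shared no MCM2-7 position. ARS436 was kept through these events alone.

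The differences of some pairs were small or rested on 1 replicate. ARS801 and ARS802 on either side of COS8 had places of 87.6 and 76.2 against 67.1 and 60.3, so that both partners were high. At ARS313 and ARS314, which flank the phosphate transporter gene PHO87, the places were 24.4 and 18.1 against 34.3 and 63.7. ARS102.5 led ARS103 by 21.1 points in replicate 1 and by 5.70 in replicate 2. ARS451 and ARS423, around the transcription factor gene SWI5, had 20.9 and 24.9 against 20.4 and 75.4, and no partner led in both replicates.

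**Figure D2:**
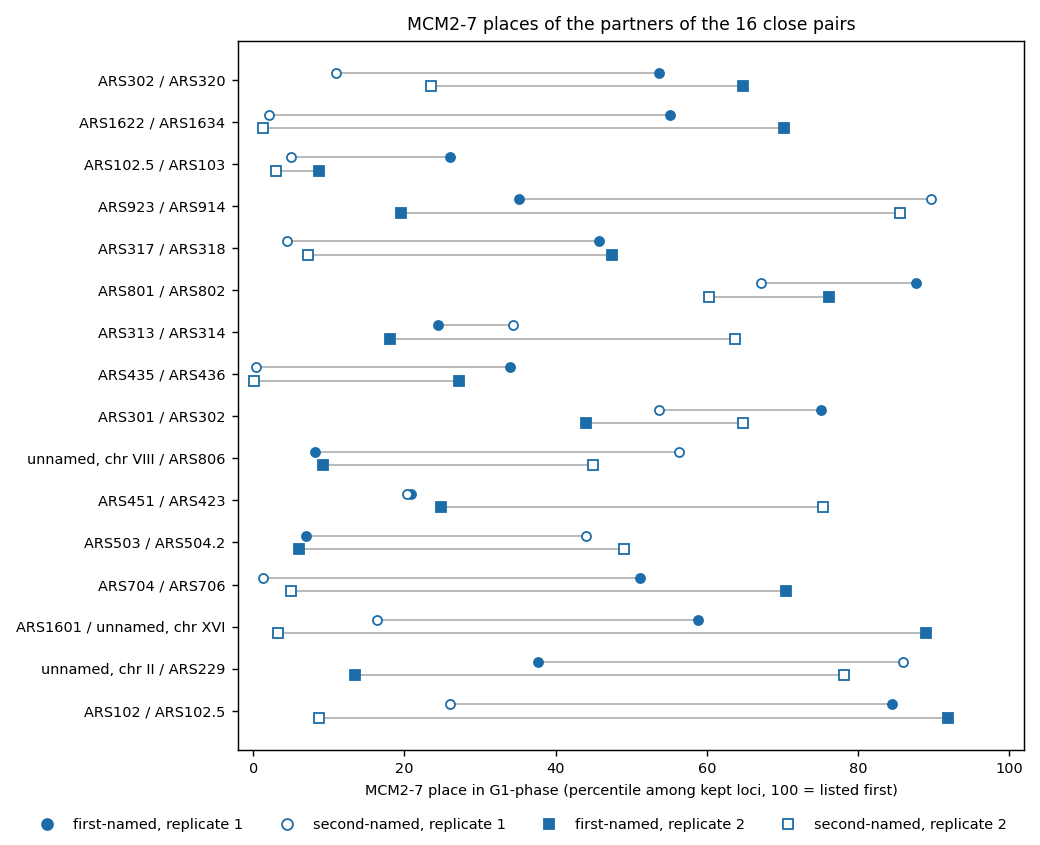
MCM2-7 place in G1-phase (x axis, percentile among kept loci, 100 = listed first) of both partners of the 16 close pairs, ordered by spacing from the closest at the top. Filled symbols are the first-named partner and open symbols the second, circles replicate 1 and squares replicate 2, and lines join the partners. The order of the partners is the same in both replicates in 14 pairs and turns round at ARS301 / ARS302 and ARS451 / ARS423.

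The silent cassettes gave the closest group of 3 and the HMR pair. ARS301 and ARS302 lie on either side of the HML genes HMLALPHA1 and HMLALPHA2, and R64 lists both as inactive origins that work as silencers. ARS301 had MCM2-7 places of 75.1 and 44.0, and ARS302 had 53.7 and 64.8, so that neither led in both replicates. ARS320, 595 bp beyond ARS302 toward CHA1, had 11 and 23.5, below ARS302 in both. At HMR, ARS317 at the HMR-E silencer had 45.7 and 47.4, against 4.42 and 7.26 at ARS318 on the other side of HMRA1 and HMRA2.

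ORC placed ARS301, ARS302 and ARS317 far higher than MCM2-7 did, and ARS318 at the HMR-I silencer had lower ORC places than these 3 loci. ARS301 had ORC places of 98.1 and 97.3 in G1-phase and 97.9 and 96.8 in G2-phase. ARS302 had 99.9 and 95.0 in G1-phase and 97.6 and 98.6 in G2-phase, and ARS317 had 97.0 and 76.5 in G1-phase and 93.0 and 96.2 in G2-phase. These loci were near the top of the ORC lists in both arrests, and in the middle or upper ranks of the MCM2-7 lists. Their neighbour ARS320 was lower, with 63.0 and 27.8 in G1-phase and 41.4 and 27.2 in G2-phase. The HMR-I locus ARS318, also a silencer, had 40.7 and 72.8 in G1-phase and 31.1 and 26.6 in G2-phase. High ORC with lower MCM2-7 was not particular to the silencers. ARS923 on chromosome IX had ORC places of 96.1 and 78.8 in G1-phase and 89.0 and 91.2 in G2-phase. Its MCM2-7 places were 35.2 and 19.5.

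Close pairs with a leader in both MCM2-7 and ORC shared it for ORC of G1-phase, and mostly shared it for ORC of G2-phase. For ORC of G1-phase only 9 of 16 close pairs had both leaders. In G1-phase the same partner was higher in both ORC lists in 10 of 15 close pairs with values (66.7%, background 78.2%), and in G2-phase in 10 of 13 (76.9%, background 77.7%). Of the pairs with a leader in MCM2-7 and in ORC of G1-phase, 9 of 9 shared it, against 145 of 207 other neighbouring pairs (70.0%). This depends on the limit of spacing, as 5 of 8 pairs spaced between 6 and 8 kb shared it. Of the pairs just outside the limit, ARS721 led ARS722 in both MCM2-7 lists and followed it in both ORC lists of G1-phase, and ARS726 and ARS727, and ARS907 and ARS908, also had opposite leaders. Single replicates need no agreement between lists. They gave a shared leader in 12 of 16 close pairs in replicate 1 and in 12 of 15 in replicate 2. The share over other pairs was not computed for single replicates. With tied scores ranked, 3 close pairs shared a leader. MCM2-7 in G1-phase and ORC in G2-phase shared it in 8 of 10 close pairs, against 128 of 178 other pairs (71.9%). ORC in G1- and G2-phase shared it in 5 of 5 close pairs, against 152 of 168 other pairs (90.5%).

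ARS1622 was ahead of ARS1634 in every list, with ORC places of 69.6 and 42.2 against 3.00 and 0.720 in G1-phase, and 74.6 and 35.8 against 24.5 and 17.7 in G2-phase. ARS704 had ORC places of 59.3 and 55.8 against 7.57 and 17.7 at ARS706 in G1-phase, and 64.3 and 27.5 against 3.58 and 11.5 in G2-phase. The pairs ARS302 and ARS320, ARS317 and ARS318, and ARS1601 and its unnamed partner also kept 1 order in all 6 lists. Opposite leaders in MCM2-7 and in ORC of G2-phase were found in 2 pairs. ARS923 led ARS914 in ORC of G2-phase with 89.0 and 91.2 against 87.5 and 85.4, a difference of 1.43 and 5.85 points, whereas MCM2-7 was higher at ARS914 by far. At ARS801 and ARS802, ORC in G2-phase was 37.7 and 34.0 against 64.9 and 67.2, and in G1-phase the partners were level at 79.9 and 79.4 against 80.4 and 78.5.

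Over the close pairs, the mean place of 1 partner said little of the other. The Spearman correlation between partners was -0.191 for MCM2-7 (16 pairs), 0.225 for ORC in G1-phase (15 pairs) and 0.143 for ORC in G2-phase (13 pairs), with values of -0.0543, -0.036 and 0.0173 over the other neighbouring pairs. The points share their lists, and 2 loci of the groups of 3 enter 2 pairs each.

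The G1 and G2 lists were compared at the 26 close loci with an ORC event in all 4. Both G1 places were above both G2 places at 7 of 26 (26.9%), near the background of 25.5% over all kept loci, and 17 overlapped. Both G1 places were below both G2 places at 2 of 26 (7.69%), against a background of 20.2% and 63 of 296 other kept loci (21.3%). The median difference of mean place, G1-phase minus G2-phase, was 5.51 percentile points at close loci and -0.755 at other kept loci. Without replicate 2 of G2-phase, the shortest list, 11 close loci were higher in G1-phase and 5 lower. Lists overlap less easily with 1 G2 list, and loci without an event in replicate 2 then enter. With score percentiles in place of list order 7 were higher and 8 lower, so the low count of 2 depends on the ranking. Shares over all kept loci were not computed for these settings, so these counts have no background.

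ARS102 had ORC places of 47.3 and 96.4 in G1-phase, against 24.8 and 18.9 in G2-phase. ARS801 had 79.9 and 79.4 in G1-phase, against 37.7 and 34.0 in G2-phase, and ARS503 had 41.6 and 50.3, against 6.16 and 7.54. These are the largest differences of mean place, 50, 43.8 and 39.1 points, and each of the loci lies within 20 kb of a chromosome end and is not wholly unique in R64. ARS314 (34.3 points), ARS318 (27.9), ARS802 (13.4) and ARS914 (5.93) were also higher in G1-phase without overlap. ARS1634 had 3.00 and 0.720 in G1-phase against 24.5 and 17.7 in G2-phase, and ARS229 had 37.6 and 22.6 against 39.1 and 41.1. These 2 were lower in G1-phase, by 19.2 and 10 points. The part of chromosome ends and repeated sequence in these differences was not tested.

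An ORC list lacked an event at 4 close loci. ARS451 had no event in either G2 list and ORC places of 2.71 and 14.6 in G1-phase. ARS436 and the locus at chrII:796589-796847 had none in replicate 2 of G2-phase, and the locus at chrVIII:111350-111737 had none in replicate 2 of G1-phase. All these loci were low in the ORC lists that held them, with places of 30.4 or less.

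**Figure D3:**
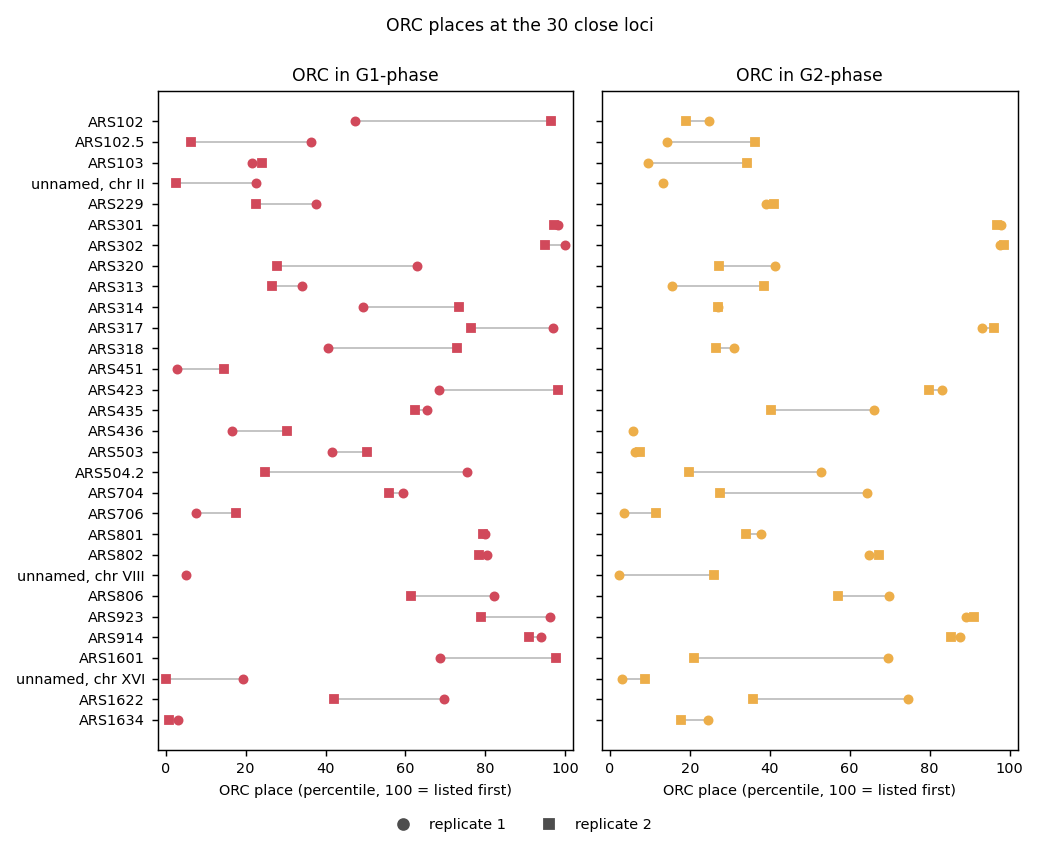
ORC place (x axis, percentile, 100 = listed first) at the 30 close loci in G1-phase (left) and G2-phase (right), with circles for replicate 1, squares for replicate 2 and lines between them. ARS301 and ARS302 are near the top in both states, as is ARS317 except in replicate 2 of G1-phase. ARS102, ARS801 and ARS503 are higher in G1-phase.

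Set against the other kept loci, the close loci were lower in both MCM2-7 lists. Their median place was 34.8 and 35.6 in replicates 1 and 2, against 51.4 and 51.1 at other kept loci, and 12 of 30 (40.0%) had a mean place under 25, against 74 of 321 (23.1%). At 4 close loci (13.3%) and 83 other kept loci (25.9%) it was above 75, and the ranges overlapped almost wholly, from 0.285 to 88.2 at close loci and from 0.285 to 99.7 at other kept loci. Beyond 20 kb of an end, the medians were 29.2 and 26.1 at 16 close loci and 49.4 and 49.7 at 293 other kept loci. Within 20 kb they were 48.9 and 46.6 at 14 close loci and 71.8 and 69.9 at 28 others. With the limit of spacing at 8 kb the difference of the median mean places, -12.4 points here, became -0.427. It was 0 with score percentiles in place of list order, -4.43 with chaining at 400 bp and -6.74 with places among all events.

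For ORC in G1-phase the medians were 54.3 and 55.8 at close loci and 50 and 49.6 at other kept loci. Beyond 20 kb of an end they were 54.3 and 61.5 at close loci and 48.9 and 48.8 at other kept loci, but within 20 kb they were 55.1 and 39 at close loci and 56.6 and 82.6 at others. The difference of the median mean places was 6.05 points, and it turned to -1.79 with the limit of spacing at 8 kb. In G2-phase they were 39.1 and 34.3 at close loci and 50.4 and 51.7 at other kept loci. Beyond 20 kb of an end the G2 medians were 64.3 and 37.2 at close loci and 50.6 and 52.2 at other kept loci, so the replicates then differed in direction, and the difference of the median mean places was -1.53 points, against -14.7 for all. With the upper-scoring events of each list only (median score and up), it turned to 20 points.

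**Figure D4:**
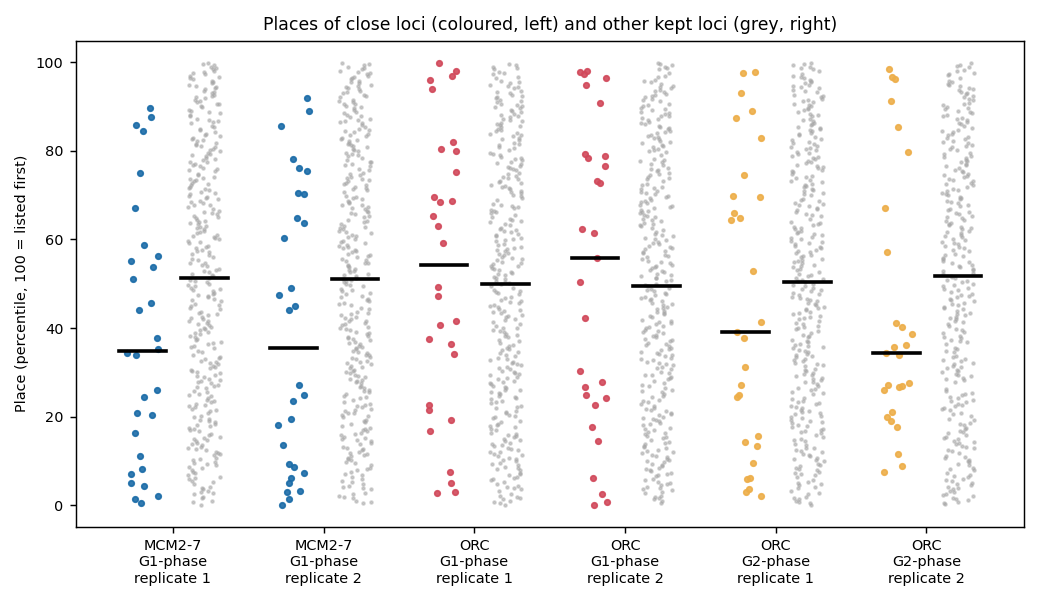
Place of each locus in each list (y axis, percentile, 100 = listed first), with close loci in colour on the left and other kept loci in grey on the right, and bars at the medians. The MCM2-7 medians of close loci, 34.8 and 35.6, are below those of other kept loci, 51.4 and 51.1, while the ORC medians of G1-phase are 54.3 and 55.8, against 50 and 49.6.

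The positions of MCM2-7 events differed between replicates by the same median distance at close loci and elsewhere, and those of ORC by more at close loci. First-listed MCM2-7 events of the replicates were a median of 21 bp apart at close loci and 21 bp at other kept loci, and within 25 bp at 18 close loci (60%) and 186 others (57.9%). First-listed MCM2-7 and ORC events in G1-phase were a median of 26.5 bp apart in replicate 1 and 39 bp in replicate 2 at close loci, against 39.5 and 46 bp. For ORC the replicates were a median of 40 bp apart in G1-phase and 57 bp in G2-phase at close loci, against 32 and 36 bp at other kept loci. The median close locus spanned 356.5 bp with 24 events over the 6 lists, and the median other kept locus 373 bp with 26 events.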

How the data were processed

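ChIP-Exo libraries were available for Mcm4 in G1-phase and Orc2 in G1- and G2-phase, with 2 replicates each. The authors aligned reads to R64 with Bowtie2 (version 2.3.5, default settings) and called events on each replicate with ChExMix, leaving out tRNA genes and the rDNA. The deposited lists give the position of each event as a single base and the authors' score, a whole number that is not normalized between lists and holds no read count. How the score was made is not given in the sources used here.

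Events of the 6 lists were chained at 250 bp, and 17 events outside kept loci were left out. Places, pairs and matches were computed with pandas (2.3.3), NumPy (2.4.6) and SciPy (1.17.1) under Python (3.11.15), figures with Matplotlib (3.10.9), after tests on simulated lists. Loci carry the R64 ARS name, or a name from the study's list of A-elements within 1 kb. The rule named the 5 closest pairs, the 3 pairs with the largest and the 3 with the smallest MCM2-7 difference, and up to 3 loci each way between G1 and G2; other loci were named after their values were seen. Members and lists were chosen with earlier results of these data known. Replicates 1 and 2 are not shown to be matched across conditions.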

Additional observations from a re-analysis of the deposited data

How the results depend on the processing

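Counts of leaders and differences of place changed with the spacing limit, the score filter and the ranking of capped scores. The number of close pairs changed as well. MCM2-7 leaders were 14 of 16 close pairs in the main setting, 8 of 9 at 4 kb and 25 of 28 at 8 kb. With the score filter they were 6 of 8. The cause was not tested for any change, except where fewer pairs or loci enter by construction. Shares over all kept loci were not computed for the alternative settings. Their counts of loci higher or lower in G1-phase therefore have no background. At a spacing of 4 kb there were 17 close loci, with 8 MCM2-7 leaders, 5 and 6 ORC leaders in G1- and G2-phase, 5 shared leaders of MCM2-7 and ORC in G1-phase, 1 locus lower in G1-phase, differences of median place of -19.3 (MCM2-7), 11.2 (ORC, G1-phase) and -5.3 (ORC, G2-phase), and median distances of 22 bp between MCM2-7 replicates and 40.5 bp between MCM2-7 and ORC. At 8 kb there were 53 close loci, with 25, 18 and 20 leaders, 14 shared leaders, 12 loci higher in G1-phase, differences of -0.427 for MCM2-7 and, turned round, -1.79 for ORC in G1-phase (6.05 otherwise), and 20 bp between MCM2-7 replicates. With the upper-scoring events of each list only (median score and up) there were 15 close loci, 6 MCM2-7 leaders, 0 and 2 ORC leaders, 0 shared leaders, 3 loci higher and 0 lower in G1-phase, differences of -7.96, 27 and, turned round, 20 for ORC in G2-phase (-14.7 otherwise), and 22 bp. Chaining at 150 bp gave -14 for MCM2-7 and 17.5 bp, and at 400 bp -4.43 and 20 bp.

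With score percentiles in place of list order there were 5 MCM2-7 leaders, 3 shared leaders and 8 loci lower in G1-phase, and the differences were 0 for MCM2-7 and 14.4 for ORC in G1-phase. Places among all events gave 1 locus lower in G1-phase and -6.74 for MCM2-7. The nearest events of the lists lay a median of 3 bp apart for MCM2-7 replicates and 3 bp for MCM2-7 and ORC. Chosen after the data were seen, loci beyond 20 kb of an end gave -20, 8.02 and -1.53, and leaving out replicate 2 of Orc2 in G2-phase gave 11 loci higher and 5 lower. 

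Pairing G1 and G2 lists by number (replicate block) gave 12 close loci higher in G1-phase, against 7, and 2 lower, as without it. Deviations of same-numbered lists had a correlation of 0.000816 over 322 loci, so the places show no pairing by number. This cannot show whether same-numbered libraries were prepared together. Without 1 replicate at a time, close loci ranged from 30 to 34. A leader was shared in 12 of 15 close pairs without replicate 1 and in 12 of 16 without replicate 2. Loci higher in G1-phase were 17 to 22 and lower 7 to 9 (1 list against 1 cannot overlap). The differences were -16.7 to -15.5 for MCM2-7, and 4.29 to 6.2 and -17.4 to -11.3 for ORC in G1- and G2-phase. The MCM2-7 to ORC distance was 26.5 to 39 bp. A leader in both replicates and the distance between MCM2-7 replicates have no value with 1 list. Of 108 alternative values, 50 were labelled the same as the main value, 56 moved and 2 turned direction. Only differences of place could turn direction, and counts and distances could only stay or move.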
